A study of Oncorhynchus mykiss with 13 samples.

Results

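Ovarian aromatase (cyp19a1) was followed in the preovulatory ovary of rainbow trout through the 2 cDNA clones that represent it on a nylon array, tcac0004.f.21 and tcbk0013.n.16. They are 2 of 9023 cDNA clones in the deposited values, and both are among the 8077 clones whose value was above 0 on every array. Both clones were chosen because the study had selected them on these same arrays for an under expression at maturation, so their stage differences are given as a description and carry no test. Each array was hybridised with RNA from the full ovarian tissue of 1 female, and the 13 females were separate fish of an autumn-spawning strain in their first reproductive season, 2 years old and untreated. In 3 females (numbers 2, 3 and 4) the ovary was at late vitellogenesis, when yolk still hides the oocyte nucleus, or germinal vesicle. In 4 females (13, 14, 15 and 31) it was at post-vitellogenesis, after yolk uptake and before meiosis resumed, and the labels place the germinal vesicle at the periphery in female 14. In 6 females (25 to 30) it was at oocyte maturation, with the yolk clarifying around the breakdown of the germinal vesicle.

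Aromatase is the cytochrome P450 enzyme that converts androgens into estrogens. In the fish ovary it is made by the granulosa cells that surround the oocyte, which take up androgen from the neighbouring theca cells and release estradiol, and estradiol drives the liver to make the yolk precursor vitellogenin. When the follicle ends vitellogenesis, its steroid output is known to turn from estradiol to the maturation-inducing steroid, the progestin that makes the oocyte resume meiosis. The sequences of both clones had medaka Cyp19a1 as their best protein match and fell into 1 cluster of transcripts, so they are spots for the same gene and not independent measurements of 2 genes. The values are ratios: the spot signal, corrected for the DNA present in the spot, over the median of its array. A ratio of 1 is therefore the middle of the array. A value is compared only between females for the same clone, since different clones can bind the labelled cDNA unequally. In whole tissue, fewer granulosa cells and less aromatase mRNA per granulosa cell cannot be told apart.

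The mRNA abundance of cyp19a1 was highest at late vitellogenesis, very unequal between females at post-vitellogenesis, and low in every maturing ovary. For clone tcac0004.f.21, the ratio was 14.7, 19.2 and 14.2 in late vitellogenesis females 2, 3 and 4. It was 6.62, 3.33, 13.4 and 2.24 in post-vitellogenesis females 13, 14, 15 and 31. Across the 6 maturing females the lowest was 1.24 in female 28, the median 1.35 and the highest 2.09 in female 27. This clone averaged 16.03 ± 2.71 at late vitellogenesis (SD, 3 females), 6.39 ± 5.02 at post-vitellogenesis (SD, 4 females) and 1.46 ± 0.313 at maturation (SD, 6 females). No female of one stage overlapped with those of another for this clone, but the gaps at both edges of post-vitellogenesis were narrow: female 15 lay 1.06-fold under the lowest late vitellogenesis female, and the highest maturing female lay 1.07-fold under female 31.

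Clone tcbk0013.n.16 gave the same succession with a lower end. Its ratio was 10.8, 11.9 and 6.98 in late vitellogenesis females 2, 3 and 4. At post-vitellogenesis it was 3.61, 1.79, 8.99 and 0.963 in females 13, 14, 15 and 31. In maturing females it ran between 0.315 in female 28 and 0.650 in female 30, with a median of 0.338. Averages were 9.89 ± 2.58 at late vitellogenesis, 3.84 ± 3.61 at post-vitellogenesis and 0.400 ± 0.131 at maturation (SD over the same females). Here female 15 exceeded late vitellogenesis female 4, so late vitellogenesis and post-vitellogenesis overlapped. The maturing females lay apart from all others, with the highest of them 1.48-fold under female 31.

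**Figure D1:**
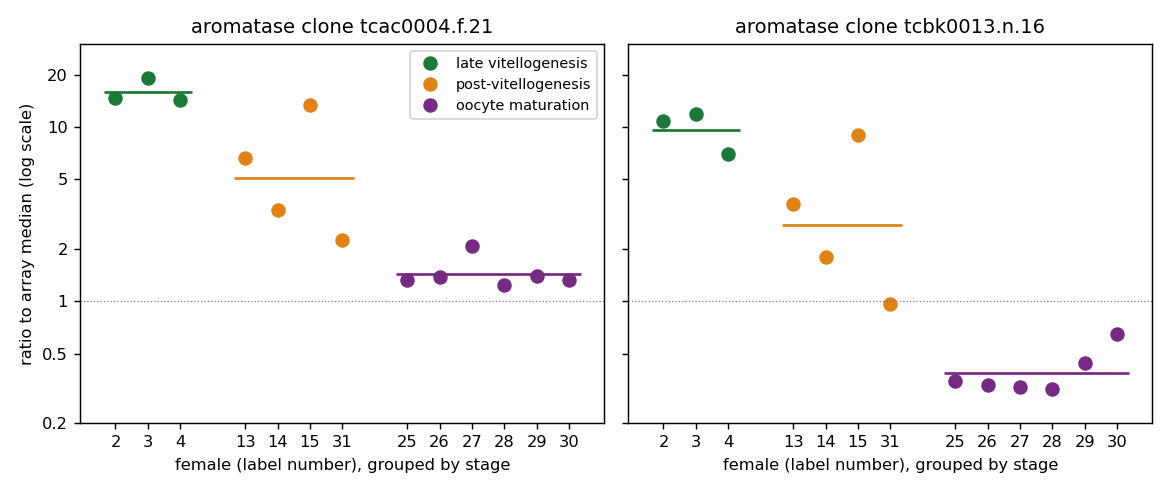
Ratio to the array median (log scale) of each aromatase clone in each of the 13 females; points are females, coloured by stage, horizontal bars are the geometric means of the stages, and the dotted line marks a ratio of 1. Maturing females sit between 1.24 and 2.09 for tcac0004.f.21 and between 0.315 and 0.650 for tcbk0013.n.16, under every earlier female.

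Set against late vitellogenesis, the geometric mean at maturation was 11.1-fold lower for tcac0004.f.21 (a difference of -3.47 in mean log2 ratio) and 24.99-fold lower for tcbk0013.n.16 (-4.64). These were the second largest and the largest fall among the 8077 clones, whose median difference was 0.03. All maturing females lay under all late vitellogenesis females for both clones, as they did for 347 of 8077 clones, or 4.30%. The fold of tcbk0013.n.16 was 15.4 when 0.25 was added to every ratio, because its maturing values are themselves of that order. By real-time PCR, on these and further females, the study reported a larger fall of cyp19a1 between the same stages than either clone gave.

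The fall was divided between both steps of the series. At post-vitellogenesis the geometric mean was 3.13-fold lower than at late vitellogenesis for tcac0004.f.21 (-1.65 on the log2 scale) and 3.52-fold lower for tcbk0013.n.16 (-1.82). These were again the second largest and the largest fall among the 8077 clones above 0 on every array. The next clone in that order, tcbk0037.p.03, had a log2 difference of -0.98. The post-vitellogenesis females lay entirely under the late vitellogenesis females for tcac0004.f.21 and not for tcbk0013.n.16, against a background of 1.30% of clones. Female 15 weighed on this step: without it the folds were 4.33 and 5.24, and without female 31 they were 2.39 and 2.49.

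At maturation the geometric mean was a further 3.54-fold lower than at post-vitellogenesis for tcac0004.f.21 (-1.82) and 7.09-fold lower for tcbk0013.n.16 (-2.83). The tcbk0013.n.16 fall was the largest among the same 8077 clones. The tcac0004.f.21 fall came after that of tcbk0034.l.08, a clone similar to cmah, an enzyme that modifies sialic acids, with 4.47-fold. Both aromatase clones lay entirely under the post-vitellogenesis females at maturation, as did 2.88% of clones. For tcbk0013.n.16 the fold of this step was 4.77 without female 15 and 10.04 without female 31. Against the 7 earlier females together, the maturing ones were 5.78-fold (-2.53) lower for tcac0004.f.21 and 12.2-fold (-3.60) lower for tcbk0013.n.16, with no overlap for either clone, as for 1.63% of clones. The fold of tcbk0013.n.16 was 7.91 with 0.25 added to every ratio.

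**Figure D2:**
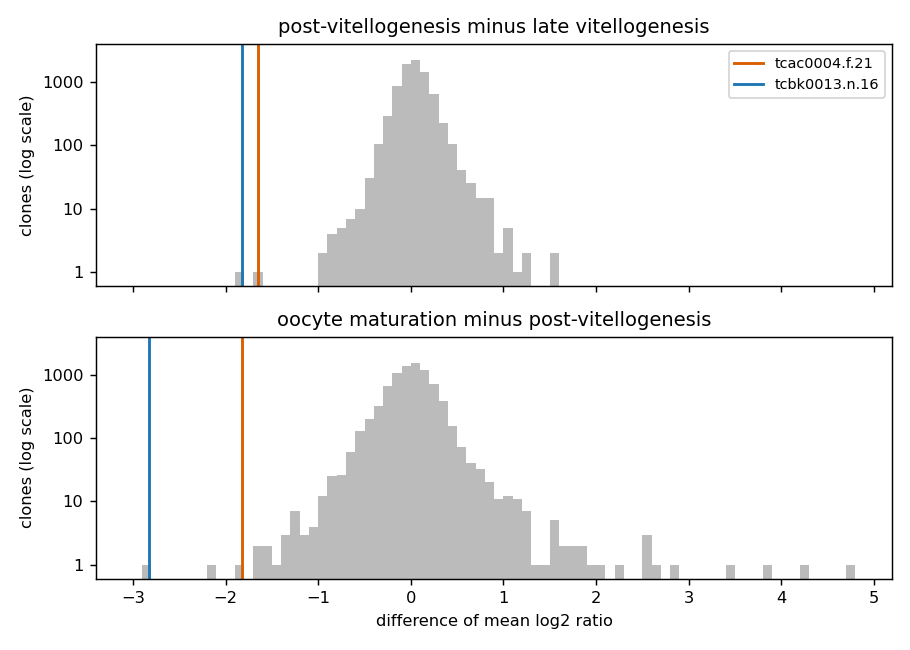
Number of clones (log scale) by difference of mean log2 ratio, over the 8077 clones above 0 on every array, for post-vitellogenesis minus late vitellogenesis (upper panel) and oocyte maturation minus post-vitellogenesis (lower panel); vertical lines mark the aromatase clones. In the upper panel they stand at -1.65 and -1.82, with every other clone to the right of -1, and in the lower panel at -1.82 and -2.83.

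The spread between females was widest at post-vitellogenesis. Within post-vitellogenesis, the highest female was 5.98-fold above the lowest for tcac0004.f.21 and 9.34-fold for tcbk0013.n.16. The SD of the log2 ratio there was 1.14 and 1.38, against a median of 0.18 over all clones, and these SDs were the ninth largest and the second largest of the 8077 clones. Within late vitellogenesis the highest female was 1.34-fold and 1.71-fold above the lowest, and within maturation 1.68-fold and 2.07-fold. The SD of tcac0004.f.21 was 0.23 at late vitellogenesis and 0.27 at maturation, and that of tcbk0013.n.16 was 0.41 at both, against medians over all clones of 0.18 and 0.22.

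The order of the post-vitellogenesis females was the same for both clones: female 15 highest, then 13, 14 and 31. Placed on the log2 distance between the mean of late vitellogenesis (0%) and that of maturation (100%), tcac0004.f.21 had covered 7.12% of the way in female 15, 36.4% in female 13, 64.9% in female 14 and 81.5% in female 31. For tcbk0013.n.16 the positions were 2.18%, 30.5%, 52.3% and 71.6% in the same females. Female 15 was close to the late vitellogenesis mean of aromatase, and female 31 was nearest to the maturing ovaries. The 8075 other clones as a whole, projected on their own late vitellogenesis to maturation distance, put the females in the same order, at 13.6%, 14.2%, 34.9% and 37.6%. That array-wide scale is coarse, since late vitellogenesis females placed on it without their own array fell between 4.92% and 39.8%, a range that holds all 4 post-vitellogenesis females too. Both aromatase clones spread the 4 females over most of the distance, while the projection over the 8075 other clones kept them closer together. A single clone and a projection over many are not alike, so this contrast does not set aromatase apart from other single clones. Protein S clone tcbk0006.j.01, described below, also spread these females widely. Its ratio was 7.224 in female 15 and 1.199 in female 31, against means of 5.469 at late vitellogenesis and 1.117 at maturation. How many other single clones did so was not tested.

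**Figure D3:**
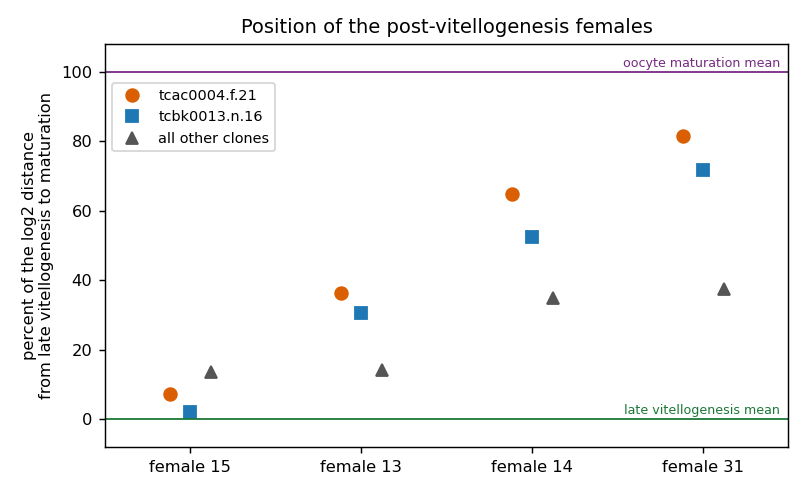
Position of each post-vitellogenesis female, in percent of the log2 distance from the late vitellogenesis mean (0) to the oocyte maturation mean (100), for each aromatase clone and for the 8075 other clones together. The aromatase clones run between 2.18% in female 15 and 81.5% in female 31, and the other clones between 13.6% and 37.6%.

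The measured fall was larger for tcbk0013.n.16 than for tcac0004.f.21, as the ratio of tcbk0013.n.16 to tcac0004.f.21 within a female shows. The stage difference of this ratio is the difference between the stage changes of both clones, for which they were selected, so it too is a description and carries no test. It was 0.732, 0.623 and 0.490 in late vitellogenesis females 2, 3 and 4, and 0.546, 0.538, 0.671 and 0.430 in post-vitellogenesis females 13, 14, 15 and 31. In maturing females 25 to 30 it was 0.264, 0.240, 0.153, 0.253, 0.318 and 0.491. In 5 of the 6 maturing females the ratio lay under every earlier one, and in female 30 it was above those of females 4 and 31.

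The mean log2 clone ratio of maturing females differed by -1.07 from that of the earlier females, which is a 2.11-fold larger fall of tcbk0013.n.16. The difference was -1.25 without female 30 and -0.91 without female 27, and it was -0.63 when 0.25 was added to every ratio. Maturing females differed by -1.17 from late vitellogenesis females and by -1.002 from post-vitellogenesis females. Between post-vitellogenesis and late vitellogenesis the clone ratio differed by -0.17, with the females of both stages interleaved. In maturing females the tcbk0013.n.16 signal lay near the bottom of its array, between percentiles 4.77 and 21.5 of the 8077 clones, and that of tcac0004.f.21 between percentiles 59.3 and 80.7. The part of this low signal in the difference between the clones was not tested.

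**Figure D4:**
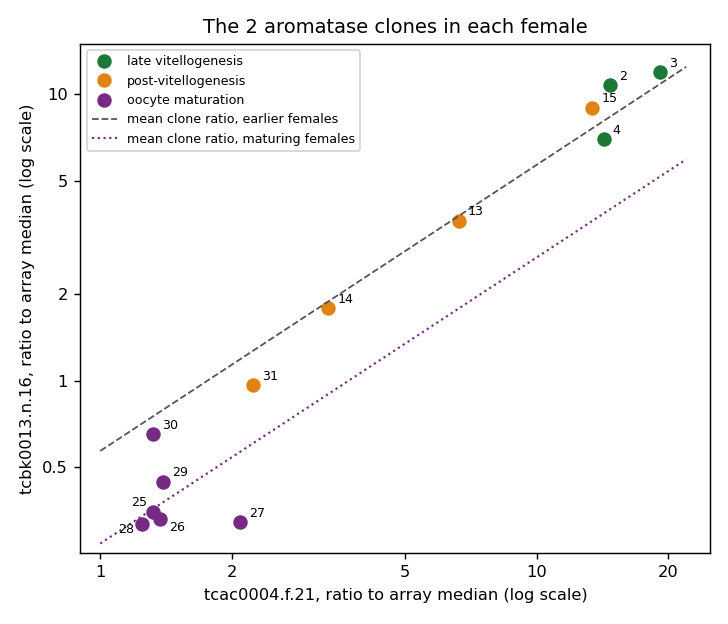
Ratio to the array median of tcbk0013.n.16 against that of tcac0004.f.21 in each female (both axes logarithmic), with female numbers; the lines show the geometric mean of the clone ratio in the 7 earlier females (dashed) and in the 6 maturing females (dotted). Earlier females follow the dashed line over the whole range, and 5 of the 6 maturing females lie below it by more than any earlier one.

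The same ratio was taken for protein S and aquaporin 4, whose named clones also share a cluster of transcripts, and there it changed less. Other clones with the same protein match were not compared. For protein S, the vitamin K-dependent cofactor of the coagulation system, the log2 ratio of clone tcay0036.n.19 to clone tcbk0006.j.01 differed by 0.07 between maturing and earlier females. For aquaporin 4, a water channel, the corresponding value for clones tcbk0036.e.03 and tcbk0056.f.03 was -0.06. These values carry no test, and the difference between them and aromatase was not tested.

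Over the 13 females the log2 ratios of the aromatase clones correlated at r = 0.976, a description of points that share array, spotting and stage. Each clone had the other as its closest among 8076 clones. With the stage means taken out, r was 0.855, and tcbk0013.n.16 was the second closest clone to tcac0004.f.21 after a protein S clone (r = 0.877). Within post-vitellogenesis the clones moved almost as one (r = 0.998 over 4 females). Within maturation they did not (r = -0.27 over 6 females). Female 27 was highest for tcac0004.f.21 (2.09) while its tcbk0013.n.16 value of 0.319 was among the lowest, and female 30 was highest for tcbk0013.n.16 (0.650) with 1.32 for tcac0004.f.21. The array of female 30 also had the most spots at 0, with 932 against 498 to 878 on the other arrays, and the part of this in its values was not tested.

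The clones whose profile over the 13 females was most like that of aromatase, measured as Pearson r with the mean log2 profile of both clones, were led by tcac0002.f.11, similar to the human RNA-binding protein RNPC2 (r = 0.960). Next came tcac0006.f.17, similar to the rat cytochrome P450 CYP2J3 (0.956), and tcba0023.m.01, similar to the exosome subunit RRP40 (0.954), which serves in RNA turnover. The protein S clones tcbk0006.j.01 and tcay0036.n.19 followed at 0.934 and 0.928. A clone similar to glutathione S-transferase P, tcbk0045.m.11, had 0.910, the transferrin receptor clone tcba0006.l.19, for iron uptake, 0.905, and the dipeptidase clone tcbk0039.a.06 0.901. The other 2 of the 10 closest, tcbk0026.d.10 and tcad0009.b.20, had 0.896 each and carry no name in the study's clone tables. These profiles hold the stage change for which aromatase was selected, so clones lower at maturation are favoured on this measure. The 8 named clones also stand in the same expression cluster as aromatase in the study. That cluster was formed by correlation over these same arrays, so their likeness is not independent evidence.

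At the opposite end, the chemokine cxcl14 (tcba0028.m.20, r = -0.91) was among the 10 clones least like aromatase. Clones similar to the kinase SGK2 (tcba0018.p.09, -0.91), the stress-induced protein GADD45 (1RT105A23_A_A12, -0.90), the extracellular matrix protein LTBP2 (tcac0006.o.01, -0.90), a visinin-like calcium sensor (tcba0028.o.19, -0.90), the transcription factor FOXO3 (1RT148E11_A_C06, -0.90) and the receptor phosphatase PTPRF (1RT67D22_D_B11, -0.90) were among them too. Clones 1RT31H12_D_D06 (-0.91) and 1RT85J04_D_E02 (-0.90) were also in this group and had no protein match.

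With the stage means removed, RNPC2-like tcac0002.f.11 (r = 0.836) and CYP2J3-like tcac0006.f.17 (0.826) stayed the closest to aromatase, and both protein S clones (0.790 and 0.785) were again among the first 10. Unnamed clones tcbk0002.m.02 (0.819) and 1RT113O14_C_H07 (0.810) stood between them. The 10 lowest were all unnamed, led by tcbk0011.g.12 (-0.75) and tcay0036.j.21 (-0.71). These values rest mainly on post-vitellogenesis, whose 4 females held 92.1% of the within-stage sum of squares of the aromatase profile. Over the 9 other females r was -0.13 for the RNPC2-like clone, -0.16 and -0.24 for the protein S clones, and 0.695 for the CYP2J3-like clone. In post-vitellogenesis females 13, 14, 15 and 31 the CYP2J3-like clone had ratios of 1.39, 1.35, 2.17 and 1.10, in the same order as aromatase. The RNPC2-like, CYP2J3-like and protein S clones come from the study's expression cluster that holds aromatase. Neither their likeness within stages nor this shared order is therefore independent evidence.

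**Figure D5:**
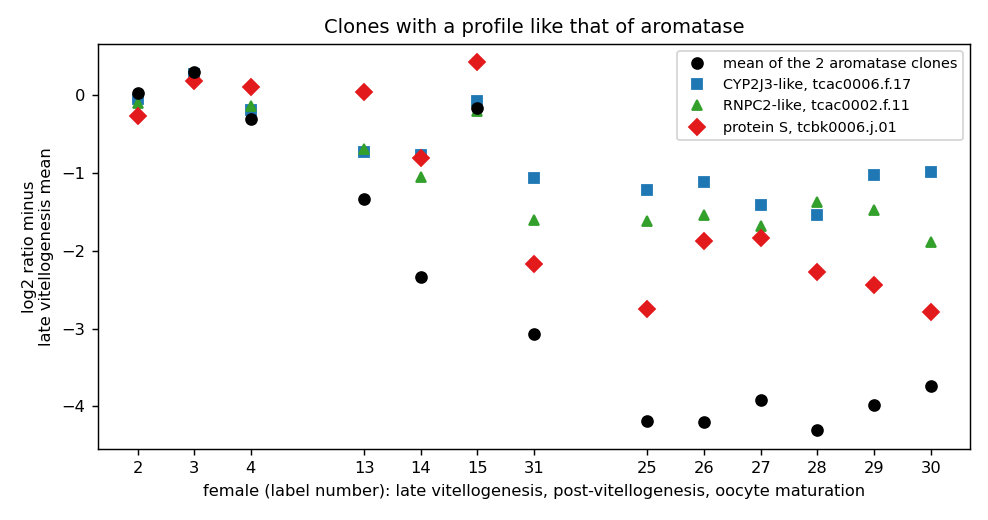
Log2 ratio in each female minus the mean of late vitellogenesis, for the mean of both aromatase clones and for the 3 clones CYP2J3-like tcac0006.f.17, RNPC2-like tcac0002.f.11 and protein S tcbk0006.j.01. In all of them female 15 is the highest post-vitellogenesis female and female 31 the lowest, and aromatase covers the widest range. The 3 clones were picked for their likeness to aromatase on these same arrays, so the shared order is not independent evidence.

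Aromatase belongs to the P450 system, and 6 further clones of that system or of steroid or retinoid metabolism were named in the study's clone tables. The study had chosen them as differential on these same arrays. Their direction, the numbers that passed and their adjusted p-values are therefore not independent evidence, also where set beside the shares over all clones. In limma's moderated test with Benjamini-Hochberg adjustment over 8077 clones, 5 of the 6 fell and 1 rose at maturation against the earlier females, where 4.77% of all clones fell and 4.09% rose. Against late vitellogenesis 4 fell and 1 rose (background 1.57% and 2.46%), and against post-vitellogenesis 3 fell and 1 rose (2.76% and 1.81%). The list's median log2 difference was -0.67 against the earlier females, where that of all clones was 0.02. It was far smaller than the aromatase differences of -2.53 and -3.60.

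None of the 6 passed limma's test between post-vitellogenesis and late vitellogenesis, where 2 had an unadjusted p under 0.05 and where 0% of all clones fell and 0.0248% rose. Left out singly, females decided some of these counts: the number that fell against late vitellogenesis was 2 without female 3 or female 4, and the number against post-vitellogenesis was 1 without female 15 and 5 without female 31.

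NADPH-cytochrome P450 reductase (tcba0022.f.09), which passes electrons to aromatase and other microsomal P450s, had ratios of 2.87 to 3.74 at late vitellogenesis, 1.81 to 3.25 at post-vitellogenesis and 1.58 to 2.21 at maturation. It fell by 0.52 on the log2 scale at maturation against the earlier females (limma, adjusted p = 0.027). The CYP2J3-like clone fell by 0.84 (limma, adjusted p = 0.0066) and cyp1a3 (tcag0002.n.03), a P450 that oxidises foreign aromatic compounds, fell by 0.64 (limma, adjusted p = 0.0048).

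A clone similar to a zebrafish cytosolic sulfotransferase (tcay0023.a.19), of a family that conjugates steroids and phenols, showed the largest fall of the 6, with 1.39 to 1.52 at late vitellogenesis, 0.708 to 1.30 at post-vitellogenesis and 0.493 to 0.678 at maturation (-1.06 against the earlier females, limma, adjusted p = 6.3e-04). Its highest post-vitellogenesis female was female 14 and not female 15, unlike aromatase. Female 14 was also the highest for cyp1a3 (1.73) and for the retinol dehydrogenase clone (2.31). For the reductase (3.25) and the CYP2J3-like clone (2.17) it was female 15, as for aromatase. At the other end the falling clones shared the lowest post-vitellogenesis female with aromatase, which was female 31. Its ratios were 0.708 for the sulfotransferase, 1.81 for the reductase and 1.10 for the CYP2J3-like clone. They were 0.899 for cyp1a3 and 0.978 for the retinol dehydrogenase clone. The retinol dehydrogenase clone tcbk0003.k.18 fell by 0.70 (limma, adjusted p = 0.0063). The clone similar to mouse CYP8B1 (tcac0005.m.05), a sterol hydroxylase of bile acid synthesis, went the other way, with 0.278 to 0.388 at late vitellogenesis, 0.378 to 0.449 at post-vitellogenesis and 0.499 to 1.21 at maturation. It rose by 1.23 on the log2 scale at maturation against the earlier females (limma, adjusted p = 1.2e-04). For this clone female 31 was the highest post-vitellogenesis female (0.449).

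No other granulosa cell, theca cell or oocyte marker was named among the clones, so the tissue could not be checked beyond aromatase itself. The clone names allowed only a list of smooth muscle type, with 4 clones, none of them at 0 in any female. Whether these clones, tropomyosin 4 above all, are specific to smooth muscle in this tissue was not tested. Their summed ratio was 12.4 to 15.1 at late vitellogenesis, 10.6 to 17.6 at post-vitellogenesis and 11.1 to 14.5 at maturation, with overlap throughout. The sum rests mostly on tropomyosin 4, so it does not show that smooth muscle content was stable. At late vitellogenesis the tropomyosin 4 clones averaged 6.32 and 5.47, against 0.642 for caldesmon and 0.975 for smoothelin. Within the list both tropomyosin 4 clones fell and caldesmon and smoothelin rose at maturation against the earlier females in limma's test. After that selection these changes are not independent evidence. In post-vitellogenesis females 13, 14, 15 and 31 the sum was 12.9, 17.6, 15.2 and 10.6, so female 31 was lowest for aromatase and for the sum. Among these females it was also lowest for both tropomyosin 4 clones. For smoothelin it was the highest of them (1.39), and for caldesmon its ratio of 0.681 lay inside their range. The part of this in the aromatase levels was not tested.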

How the data were processed

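The authors hybridised 13 nylon arrays of rainbow trout cDNA clones, spotted in duplicate, with radiolabelled ovarian cDNA. They corrected each spot by a vector oligonucleotide hybridisation for the DNA present and divided it by the median of the array. The deposited values are these ratios, 1 per spot and array, without counts, and the 13 arrays limit the precision. The table has 9216 spots, of which 9023 are clones, 64 water and 128 a control. On each array 63 or all 64 of the water spots were at 0. In maturing females 25, 28 and 29 the highest water spot read 1.49, 1.88 and 1.77. That is above their tcac0004.f.21 ratios of 1.32, 1.24 and 1.39. In female 27 it read 1.82, under 2.09, and in females 26 and 30 it was 0. Spots at 0 numbered 498 to 932 per array. The study excluded spots of low oligonucleotide signal, and whether values of 0 stand for these was not tested. Of the clones, 280 were at 0 on every array and 666 on some, and the 8077 others were analysed as log2 ratios without a pseudocount.

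Stages were taken from the labels. The study's SAM software was not run; limma 3.58.1 in R 4.3.3 was fitted over all 8077 clones, with 1 group term for the 3 stages or for maturing against earlier females, with the threshold at an adjusted p of 0.05. Exact permutation tests of the clone ratio were run in Python 3.11.15 and are not reported, since its stage difference is built from the values by which both clones were selected. Both procedures were tested on simulated data. The members and gene lists were chosen with earlier results of these data known. Named clones are both aromatase clones, the 6 P450 and steroid or retinoid enzyme clones and the smooth muscle clones. Other named pairs of clones that share a cluster of transcripts were added. Of the 10 clones most or least like aromatase, every one named in the study's tables and at most 2 unnamed ones are given. Of the 10 least like it, 1 is not reported here. The clones next after aromatase in the order of falls were added after their values were seen. No sequence is given, since none was used here. Alternatives were quantile normalisation, pseudocounts of 0.1 and 0.25, all clones kept, array weights, medians, Spearman correlation and leaving out each female.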

Additional observations from a re-analysis of the deposited data

Results flagged for a closer look

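Of 18 groups of females examined, 1 held a female far from the others of its stage, about as many as chance gives, which is about 1 in 20. It was clone tcac0004.f.21 at oocyte maturation, where female 27 had a log2 ratio of 1.06 (a ratio of 2.09) and the next highest female a ratio of 1.39. The gap was 0.783 of the range of the 6 females, above Dixon's critical value of 0.625. The same female had a tcbk0013.n.16 ratio of 0.319, inside the range of its stage.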

How the results depend on the processing

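The stage differences of both aromatase clones kept their direction in all 136 alternatives. Some of these could not change a value, since they left out a female of a stage outside the comparison. Both clones were also selected for this fall, so the kept direction is not independent evidence. With 0.25 added to every ratio, the clone ratio differed by -0.69 between maturation and late vitellogenesis and by -0.58 between maturation and post-vitellogenesis. With 1 female left out, the same differences ran from -1.34 to -1.01 and from -1.18 to -0.84. The number of P450 and steroid or retinoid enzyme clones that fell against late vitellogenesis was 2 with all clones kept and 0.1 added, and 2 to 5 with 1 female left out. Against post-vitellogenesis it was 5 with array weights, and 1 to 5 with 1 female left out. By likeness within stages, tcbk0013.n.16 ranked 1 to 42 among the clones nearest to tcac0004.f.21, with 42 reached without female 15. By whole profiles it ranked 2 without female 28 and 1 otherwise. The number of clones with post-vitellogenesis entirely under late vitellogenesis was 207 with quantile normalisation, more than 1.5 times that without it. The cause of these shifts was not tested. No paired analysis was possible because the ovaries came from separate females. The female numbers used here are those in the array titles.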
